A study of Mus musculus with 6 samples.

Results

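The genes described here encode 10 cytokine receptor chains of mast cells: the beta chains Csf2rb and Csf2rb2, the alpha chains Csf2ra, Il3ra, Il5ra, Il4ra and Il13ra1, the common gamma chain Il2rg, the IL-9 receptor Il9r and the erythropoietin receptor Epor. They were taken by symbol from the 55809 gene rows of the count tables, and all 10 were found. In GENCODE M21 the beta chain genes lie on chromosome 15, Csf2ra on 19, Il3ra on 14, Il5ra on 6, Il4ra on 7, Il9r on 11, Epor on 9, and Il13ra1 and Il2rg on X. The libraries are poly-A RNA from CD45+ F4/80- CD64- CD117+ ST2+ cells sorted as mast cells from the skin of C57BL6J mouse fetuses at embryonic day 18.5, of both sexes. For prenatal stress, pregnant dams of 8 to 10 weeks were held in restraint in bright light, 3 sessions daily of 30 minutes each, from embryonic day 13.5 to 18.5 in the design text and from day 13 to 18 in the protocol. Dams of the control group had no such sessions. There were 3 libraries for each group, each a pool of 4 mice, and how many litters a pool holds is not given in the sources used here. Each p-value reflects only the variation from pool to pool.

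Receptors of this family have no kinase of their own and signal through JAK kinases bound to their tails, which phosphorylate STAT transcription factors. GM-CSF, IL-3 and IL-5 each bind their own alpha chain, and that pair recruits the shared beta chain encoded by Csf2rb. The mouse has a further beta chain, encoded by Csf2rb2, that serves IL-3 alone. IL-4 binds the chain encoded by Il4ra, which then pairs with the common gamma chain or with the IL-13 receptor alpha 1 chain, and IL-9 uses its own receptor with the common gamma chain. In mast cells, IL-3, IL-4 and IL-9 are known as growth and differentiation factors.

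Each library held between 51710555 and 74735139 counts assigned to genes. The members had from 126 counts (Il9r, stress replicate 3) to 189032 counts (Csf2rb, control replicate 1) in a library, and all 10 passed the filter on low counts. Levels are given in CPM, counts scaled to TMM-adjusted library sizes, and a log2 fold change above 0 means a higher level in prenatal stress. Of the 12 mast cell markers all were present in every library and 6 were called higher. Their summed level was 59262 to 71524 CPM in the control pools and 85630 to 103108 in the stress pools. Over all genes tested, 4.34% were called higher and 1.85% lower, which is the share to set beside each marker list. Transcripts of other cells were present too. The 16 macrophage and monocyte markers, including Adgre1 (F4/80) and Fcgr1 (CD64), were above 0 in every library although the gate excluded cells with either protein. Their sum was 6912 to 7820 CPM in the control pools, 5307 to 7936 in the stress pools, with stress replicate 3 at the level of the controls and stress replicates 1 and 2 below it. Their mean log2 CPM was 7.70, 7.88 and 7.89 in control replicates 1, 2 and 3 and 7.52, 7.43 and 7.87 in the stress replicates. Of these markers 1 rose (Cd68), 1 fell (Cx3cr1) and 14 did not pass. Without stress replicate 3 there were 10 that fell, Adgre1, Fcgr1, Csf1r and Mrc1 among them, and 1 that rose. In that fit 7.69% of all genes tested fell and 7.76% rose. Of 4 basophil markers 3 rose (Mcpt8, Cd200r3 and Itga2), and Prss34 did not pass, at 161 to 212 CPM over all libraries. The basophil list summed to 512 to 614 CPM in the control pools and 795 to 995 in the stress pools. Eosinophil markers summed to 16.5 to 20.6 CPM in the control pools and 21.7 to 25.6 in the stress pools. Of the 3 tested Siglecf rose, from a mean of 14.1 CPM to 20.7. Ear2 and Ccr3 had log2 fold changes below 0 (-0.098 and -0.62) and did not pass, though Ccr3 passed as lower without stress replicate 3. Lymphoid markers summed to 48.2 to 69.9 and 54.7 to 69.4 CPM, while the natural killer marker Ncr1 was at 0 in all libraries. Of the 7 tested Areg, the most abundant of them, rose and 6 did not pass. The median log2 fold change of the list was -0.60. Cd3g, Trdc and Icos were lower in every stress library than in every control, as were 14.5% of all genes tested. None of the 3 dendritic markers tested passed, at a sum of 10.7 to 11.8 and 8.94 to 9.87 CPM. Among the erythroid genes Hba-a1 and Hbb-bs did not go above 4.22 and 7.96 CPM in any library, and Tfrc was at 90.1 to 113 CPM. None of the 7 tested passed, with a median log2 fold change of -0.39. Of these 3, Hbb-bs and Hbb-bt among them, were lower in every stress library than in every control. Hbb-bt passed as lower without stress replicate 3 (adjusted p = 0.0165, edgeR). In the neutrophil list Mpo reached 74.5 CPM in control replicate 2 and was at 4.48 to 23.4 CPM in the others. The part of these other cells in the results was not tested beyond the fits named below. In bulk RNA, fewer cells of a type and less RNA per cell cannot be told apart.

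The pair of beta chain genes are close copies, so the reads that tell them apart come from the bases at which they differ. Their coding sequences in GENCODE M21 are 2691 and 2637 bases long, and 2505 of 2631 aligned bases (95.2%) were identical. The longest identical run is 242 bases, shown here because a read that lies within it cannot be assigned to either gene; it starts at coding base 2083 in both.
Shared run: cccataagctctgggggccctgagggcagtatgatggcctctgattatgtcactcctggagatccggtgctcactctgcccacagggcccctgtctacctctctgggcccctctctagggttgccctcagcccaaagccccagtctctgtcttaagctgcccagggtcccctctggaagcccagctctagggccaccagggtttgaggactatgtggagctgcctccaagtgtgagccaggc
The window of 75 bases with the most differences, 14, starts at coding base 316 in Csf2rb and 319 in Csf2rb2. Capitals mark the bases at which they differ.
Csf2rb: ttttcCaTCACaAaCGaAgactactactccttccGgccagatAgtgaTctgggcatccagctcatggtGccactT
Csf2rb2: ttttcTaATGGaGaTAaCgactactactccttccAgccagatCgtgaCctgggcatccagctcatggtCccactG
The median window of 75 bases held 2 differences. Over whole transcripts, 7.15% of the 75-base stretches of Csf2rb and 10.6% of those of Csf2rb2 occur in the other gene. Reads that did not align uniquely, 8.49% or more of those tallied in a library, were kept apart from the gene counts, so the levels of both genes are uncertain.

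The beta chains were the most abundant of these receptor transcripts by far. Together they took 0.331% to 0.410% of all gene counts in the control pools and 0.479% to 0.508% in the stress pools. Of the counts of the 10 members they held 84.5% to 87.5% and 89.3% to 90.4%. Levels of different genes were compared as RPKM, CPM per kilobase of the union of exons. In the controls Csf2rb was at 307 ± 38.5 RPKM and Csf2rb2 at 285 ± 39.4 (mean ± SD, n = 3 pools, as for all means here). By their mean over the 6 libraries they ranked 89 and 90 of the 15969 tested genes with a length, and their ranges overlapped, so neither was above the other beyond the spread. Il4ra came next, at 58.9 ± 4.22 RPKM in the control pools, and then Il2rg at 28.6 ± 1.20; neither range overlapped that of its neighbours in the order.

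The other alpha chains were lower. Csf2ra was at 13.4 ± 1.41 RPKM in the control pools, Il13ra1 at 12.2 ± 0.940, Il3ra at 11.7 ± 1.64 and Il5ra at 8.45 ± 0.938. Over all 6 libraries each of these overlapped its neighbour in the order. Il3ra was the third of the 4 in the control pools and the first after prenatal stress, at 18.6 ± 0.974 RPKM against 15.9 ± 1.63 for Csf2ra. Epor, at 4.53 ± 0.308 RPKM in the control pools, and Il9r, at 0.775 ± 0.0366, were the lowest, and each stood clear of the gene above it. With the length of the longest transcript in place of the union of exons the order of the 10 means was the same, but Csf2rb stood at 456 RPKM in the control pools and Csf2rb2 still at 285, since the exons of Csf2rb cover 7277 bases in all and its longest transcript 4900.

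**Figure D1:**
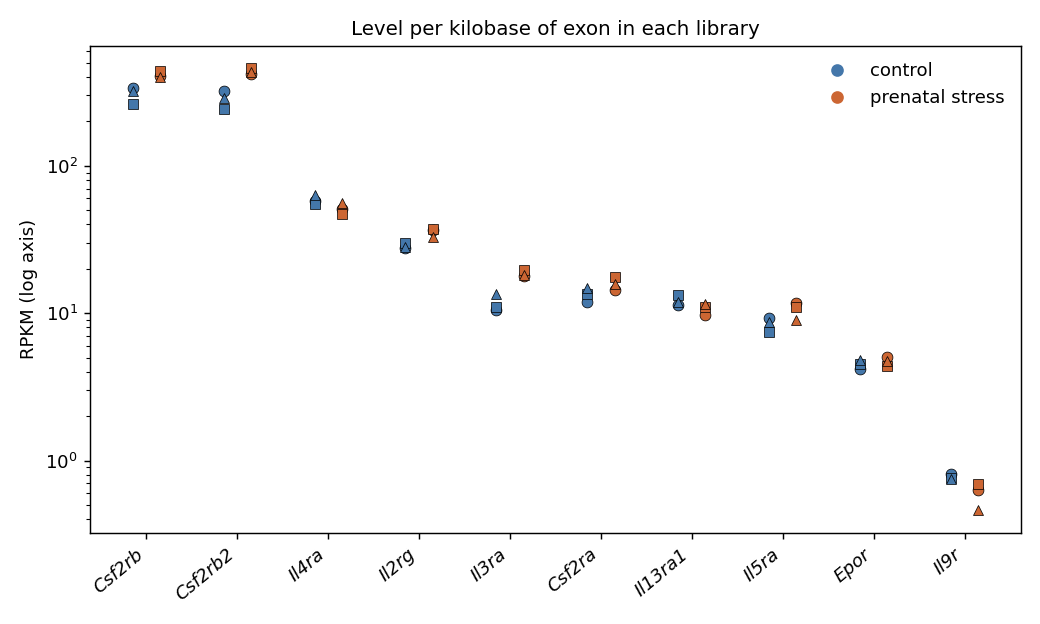
Level of each receptor chain in RPKM (y axis, log scale) in the 6 libraries, in order of the mean; blue points are controls, orange points stress libraries, and circles, squares and triangles are replicates 1, 2 and 3. The beta chains lie between 243 and 461 RPKM and Il9r between 0.458 and 0.816.

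The comparison of the groups asked whether these transcripts were at other levels in the fetuses of restrained dams. Il3ra, Csf2rb2, Csf2rb and Il2rg rose after prenatal stress, by 1.59-, 1.54-, 1.35- and 1.25-fold, none of the members fell (1.85% of all genes tested did), and 6 did not pass. That is 4 of 10 members called, where 6.19% of the 16716 genes tested were called in either direction and 4.34% were called higher (adjusted p under 0.05 by edgeR's quasi-likelihood test, Benjamini-Hochberg over all genes tested; 8 of the 10 had an unadjusted p under 0.05, as had 24.8% of all genes tested). The median log2 fold change of the 10 was 0.28, against -0.0039 for all genes tested. It was 0.43 for the 12 mast cell markers, of which 6 were called higher, so a rise of this size was not particular to the receptor chains. The stress libraries lay above all controls in 4 members, where this held for 16.0% of all genes tested, and below them in 1, Il9r, where it held for 14.5%. Without stress replicate 3, 6 of the 10 were called, where 15.4% of all genes were called in that fit. With the mean of the macrophage markers as a covariate, 3 were called, Csf2rb2 and Il3ra as higher and Il9r as lower (3.49% of all genes). With stress replicate 3 alone against the controls none was called (0.954% of all genes), a fit that assumes that the lone library varies like the controls.

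**Figure D2:**
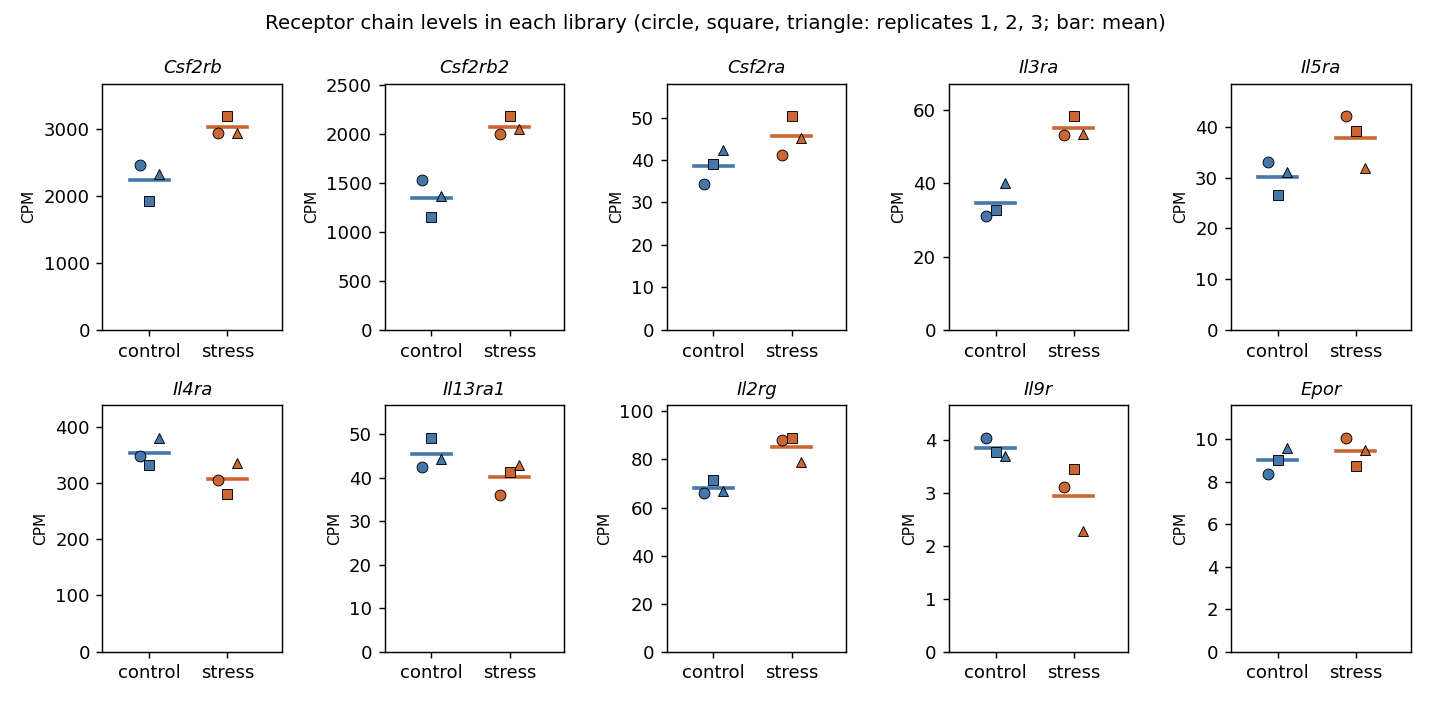
Level of each receptor chain in CPM (y axis, from 0) in the control (blue) and prenatal stress (orange) libraries; circles, squares and triangles are replicates 1, 2 and 3, and bars are means. In Csf2rb, Csf2rb2, Il3ra and Il2rg every stress library lies above every control.

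**Figure D3:**
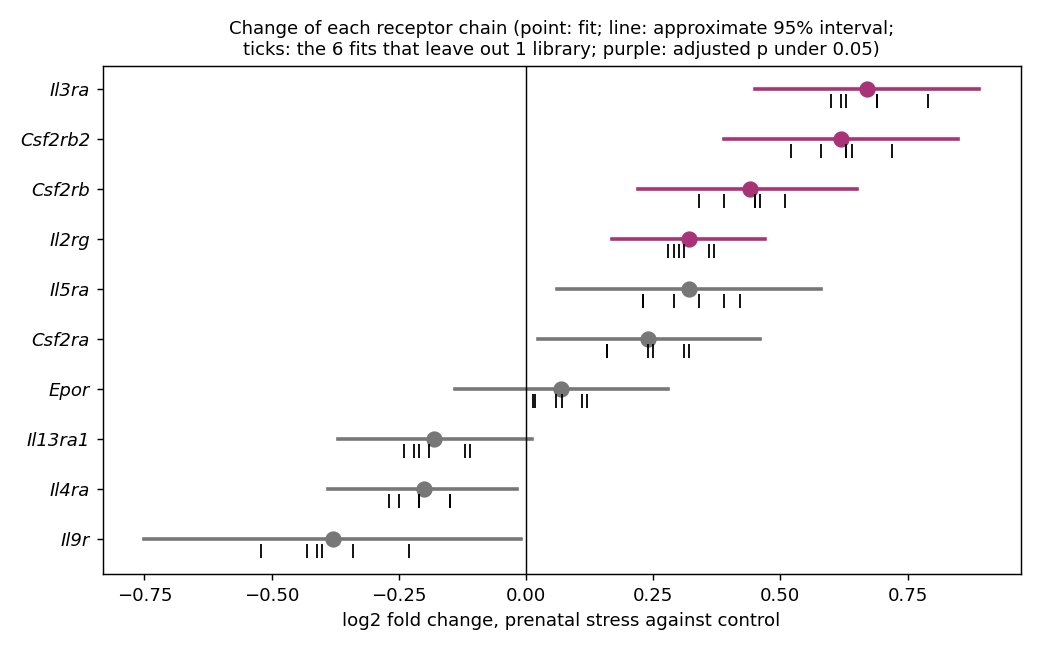
Log2 fold change of each member (x axis) with its approximate 95% interval; ticks under each line are the 6 fits that leave out 1 library, and purple marks an adjusted p under 0.05. The values run from 0.67 for Il3ra to -0.38 for Il9r.

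Csf2rb2, the beta chain of the IL-3 receptor, had levels, in the order of replicates 1, 2 and 3 as in all that follows, of 1526, 1154 and 1368 CPM in the control pools and of 1992, 2183 and 2045 CPM in the stress pools. Every stress library was above every control, and stress replicate 3 lay between the other stress libraries. The log2 fold change was 0.62 ± 0.10 (SE; adjusted p = 0.0140, edgeR). It no longer passed when control replicate 3 was left out (adjusted p = 0.0508) or when stress replicate 2 was (0.0613), and it held with the macrophage marker mean as a covariate (0.55, adjusted p = 0.0293).

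Csf2rb, the beta chain shared by GM-CSF, IL-3 and IL-5, was at 2462, 1922 and 2324 CPM in the control pools and 2942, 3192 and 2937 in the stress pools, again with no overlap. Its log2 fold change was 0.44 ± 0.096 (adjusted p = 0.0362, edgeR). Leaving out control replicate 2 ended the call (adjusted p = 0.0672), as did leaving out control replicate 3 (0.0919), stress replicate 1 (0.0722) or stress replicate 2 (0.129) and adding the macrophage covariate (0.36, adjusted p = 0.108). Since reads can be split between the copies, the counts of Csf2rb and Csf2rb2 were also added into 1 row, which does not depend on the split. The sum was at 3585 ± 465 CPM in the control pools and 5097 ± 242 after stress (log2 fold change 0.51 ± 0.099, adjusted p = 0.0240, edgeR), and this call was lost on leaving out control replicate 3 (adjusted p = 0.0754) or either of stress replicates 1 and 2 (0.0563 and 0.0925), and on adding the macrophage covariate (0.0674).

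The balance of the copies was compared within each library. For every 100 counts of Csf2rb there were 62.0, 60.0 and 58.9 of Csf2rb2 in the control pools and 67.7, 68.4 and 69.7 in the stress pools. The groups did not overlap, and the difference of the log2 ratio was 0.19 (two-sided exact permutation test, p = 0.1, which is the lowest possible with 3 against 3 and cannot pass 0.05; 0.233 adjusted over the 7 ratios compared). A ratio within a library does not depend on how libraries are scaled. It stayed between 0.17 and 0.21 when any 1 library was left out.

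Il3ra, the alpha chain that binds IL-3, had the largest log2 fold change of the 10 members, 0.67 ± 0.096 (adjusted p = 0.00967, edgeR). It was at 31.1, 32.8 and 40.2 CPM in the control pools and at 53.4, 58.5 and 53.6 in the stress pools. All 3 stress libraries were above the highest control, replicate 3. The call ended only without control replicate 2 among the fits that left out 1 library (adjusted p = 0.0527), and it held with the macrophage covariate at about the same size (0.68, adjusted p = 0.0112). Per 100 beta chain counts, Il3ra had 0.780, 1.07 and 1.09 counts in the control pools and 1.08, 1.09 and 1.08 in the stress pools. These overlapped, with control replicate 1 alone below the rest (log2 difference 0.16, exact two-sided permutation test, p = 0.4; adjusted p = 0.467).

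The other alpha chains that pair with the shared beta chain did not pass. Csf2ra, which binds GM-CSF, was at 34.4, 39.0 and 42.4 CPM in the control pools and 41.1, 50.4 and 45.2 after stress, and the groups overlapped. Its log2 fold change was 0.24 ± 0.096, with an approximate 95% interval from 0.023 to 0.46 before adjustment (adjusted p = 0.163, edgeR). Il5ra, which binds IL-5, was at 33.0, 26.5 and 31.1 CPM in the control pools and 42.2, 39.2 and 31.9 after stress. Stress replicate 3, with macrophage markers at the control level, lay within the control range, while the other stress libraries lay above it. A link between Il5ra and these markers was not tested beyond the fit with the covariate. The log2 fold change of Il5ra was 0.32 ± 0.11 (interval from 0.060 to 0.58, adjusted p = 0.129, edgeR). It passed without stress replicate 3 (0.42, adjusted p = 0.0127) and without a filter on low counts (adjusted p = 0.0398), and its value with the macrophage covariate was 0.13 (adjusted p = 0.508). Per 100 beta chain counts the log2 difference was -0.27 for Csf2ra and -0.20 for Il5ra, with overlapping groups (exact two-sided permutation test, p = 0.3 each; adjusted p = 0.42). Counts of Il5ra per 100 beta chain counts were 0.828, 0.861 and 0.842 in the control pools and 0.855, 0.729 and 0.640 in the stress pools.

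For the called members with an entry in RefSeq's promoter table, 9 of the 10 members having one, the 250 bases before the annotated start are shown, since these genes rose together. Capitals mark matches, on either strand, to GATAA (the core bound by GATA factors), AGGAAGT (a core bound by ETS factors including PU.1) or TTCNNNGAA (the core bound by STAT factors); an ETS and a STAT match can share bases. Coordinates are those of the table's build, GRCm38.p6, and the counts do not rest on them. Csf2rb2 is at chr15:78305722-78305971, minus strand, Il3ra at chr14:14346245-14346494, plus strand, and Il2rg at chrX:101268256-101268505, minus strand.
Csf2rb2: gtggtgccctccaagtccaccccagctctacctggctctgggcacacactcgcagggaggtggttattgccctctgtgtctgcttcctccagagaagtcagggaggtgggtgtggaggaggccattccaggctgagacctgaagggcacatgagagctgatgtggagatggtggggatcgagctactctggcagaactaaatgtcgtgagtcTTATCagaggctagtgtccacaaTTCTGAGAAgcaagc
Il3ra: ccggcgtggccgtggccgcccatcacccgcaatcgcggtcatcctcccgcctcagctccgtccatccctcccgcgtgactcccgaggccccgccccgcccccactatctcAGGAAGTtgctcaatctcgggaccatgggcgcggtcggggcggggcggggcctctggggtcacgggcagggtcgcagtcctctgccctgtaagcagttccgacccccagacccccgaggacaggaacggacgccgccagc
Il2rg: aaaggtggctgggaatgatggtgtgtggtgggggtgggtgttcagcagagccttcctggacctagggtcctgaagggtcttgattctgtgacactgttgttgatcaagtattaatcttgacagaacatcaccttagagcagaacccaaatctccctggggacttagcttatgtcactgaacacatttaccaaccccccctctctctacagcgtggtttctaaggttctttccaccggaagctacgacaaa
The Csf2rb2 window held a GATA match that begins 38 bases before the start and a STAT match that begins 15 bases before it, which do not overlap. The Il3ra window held an ETS match 140 bases before the start, and the Il2rg window held none of these letters. GATA matches were also present in members that were not called: 3 in Il9r, 1 in Il5ra and 1 in Epor. The windows of Csf2ra, Il4ra and Il13ra1 held no match. Of 32536 distinct windows of the same length in the table, 22.5% held GATAA, 7.70% AGGAAGT and 7.04% TTCNNNGAA. These matches are a description of the sequence and not of binding.

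The chains of the IL-4 and IL-13 receptors had values below 0 and did not pass. Il4ra was at 349, 332 and 381 CPM in the control pools and 306, 281 and 335 in the stress pools. The groups overlapped only because stress replicate 3 lay above control replicate 2. The log2 fold change was -0.20 ± 0.082 (interval from -0.39 to -0.018 before adjustment, adjusted p = 0.167, edgeR). Il13ra1, which pairs with it in the receptor for IL-13, was at 42.5, 49.2 and 44.2 CPM in the control pools and 35.9, 41.2 and 42.9 after stress (-0.18 ± 0.083, interval from -0.37 to 0.011, adjusted p = 0.224). Macrophages also express both chains. In both genes stress replicate 3, in which macrophage markers were at the control level, had the highest of the 3 stress values. Stress replicate 2, with the lowest macrophage mean, had the lowest Il4ra level, but Il13ra1 was lowest in stress replicate 1. The part of macrophage RNA in these levels was not tested beyond the fit with the covariate. With the macrophage covariate the values were -0.10 for Il4ra (adjusted p = 0.551) and -0.098 for Il13ra1 (0.606). Il4ra passed as lower without stress replicate 3 (-0.27, adjusted p = 0.0401) and with library totals in place of TMM factors (-0.32, 0.0354), a scaling that moves the median of all genes to -0.119. Counts of Il13ra1 per 100 of Il4ra were 12.2, 14.8 and 11.6 in the control pools and 11.8, 14.6 and 12.8 in the stress pools (log2 difference 0.024, exact two-sided permutation test, p = 0.9; adjusted p = 0.9).

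Il2rg, the common gamma chain of the receptors for IL-2, IL-4, IL-7, IL-9, IL-15 and IL-21, rose. It was at 66.1, 71.5 and 67.1 CPM in the control pools and at 87.9, 89.2 and 78.8 in the stress pools, with no overlap and with stress replicate 3 the lowest of its group. The log2 fold change was 0.32 ± 0.065 (adjusted p = 0.0275, edgeR). In each of the 5 fits that left out 1 library but kept stress replicate 3 the call was lost (adjusted p from 0.0728 to 0.117), as it was with the macrophage covariate (0.26, 0.0836) and with library totals in place of TMM factors (0.21, 0.089). In GENCODE M21, 30.5% of its exon length is overlapped on the same strand by Gm20489. That gene is listed at 0 counts in all 6 libraries, so the annotation used held both. Reads in the overlap may therefore be missing from Il2rg, though the extent of the overlap in that annotation is not given.

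Il9r, the chain that binds IL-9, was the scarcest member. It had 310, 221 and 210 counts in the control pools and 157, 186 and 126 in the stress pools, or 4.04, 3.76 and 3.70 CPM against 3.11, 3.45 and 2.27. Every stress library was below every control, but stress replicate 3 lay well under the others. The log2 fold change was -0.38 ± 0.16 (interval from -0.75 to -0.0098 before adjustment) and did not pass (adjusted p = 0.192, edgeR). It passed with the macrophage covariate (-0.67, adjusted p = 0.047) and was at -0.23 without stress replicate 3 (adjusted p = 0.295). Epor, the receptor of erythropoietin, which acts as a homodimer, was at 8.37, 9.03 and 9.60 CPM in the control pools and 10.1, 8.74 and 9.48 after stress. The groups overlapped, and the log2 fold change was 0.068 ± 0.092 with an interval from -0.14 to 0.28 (adjusted p = 0.692, edgeR).

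The common gamma chain was also set against its partner chains within each library. Per 100 counts of Il4ra there were 19.0, 21.6 and 17.6 of Il2rg in the control pools and 28.8, 31.7 and 23.5 in the stress pools (log2 difference 0.52). Per 100 counts of Il2rg there were 6.11, 5.26 and 5.51 of Il9r in the control pools and 3.54, 3.87 and 2.88 in the stress pools (log2 difference -0.72). The groups overlapped in neither ratio, and both tests gave the smallest p that 3 against 3 allow, which cannot pass 0.05 (exact two-sided permutation test, p = 0.1; 0.233 adjusted over the 7 ratios). Leaving out any 1 library kept the first difference between 0.43 and 0.65 and the second between -0.81 and -0.60. Macrophage RNA, whose level differed between these libraries, can enter the counts of Il4ra, and its part in these ratios was not tested.

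**Figure D4:**
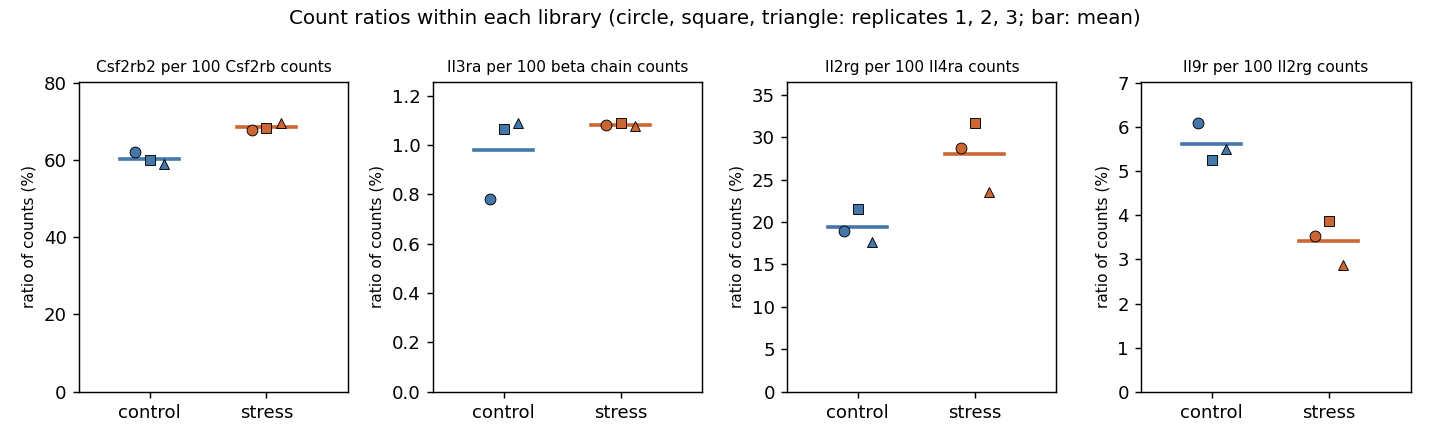
Ratio of counts within each library, in percent (y axis, from 0), for 4 of the 7 ratios; blue points are controls, orange points stress libraries, shapes are replicates and bars are means. Csf2rb2 to Csf2rb and Il2rg to Il4ra are higher in every stress library, Il9r to Il2rg is lower in every one, and Il3ra to the beta chains overlaps.

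The other genes of these pathways were taken as lists of ligands, further receptor chains, kinases, STATs, adaptors, feedback inhibitors and STAT target genes. Of their 57 genes 49 could be tested, 13 rose, 1 fell and 35 did not pass, with a median log2 fold change of 0.060. Of all genes tested 4.34% rose and 1.85% fell. Among the ligands 4 of 7 rose and none fell. Il3 was at 43.8, 31.6 and 38.2 CPM in the control pools and 76.4, 80.9 and 81.3 in the stress pools (1.07 ± 0.11, adjusted p = 0.00200, edgeR), so that the ligand and all parts of its receptor, Il3ra, Csf2rb2 and Csf2rb, were each called higher. Csf2, which encodes GM-CSF, was at 10.6, 7.42 and 9.72 CPM and at 31.8, 30.7 and 23.4 (1.63 ± 0.15, adjusted p = 0.00170), while its alpha chain did not pass. Il4 was at 69.9, 66.3 and 68.8 CPM and at 122, 121 and 91.6 (0.71 ± 0.10, adjusted p = 0.00996), and Il13 at 221, 210 and 240 and at 314, 322 and 302 (0.48 ± 0.066, adjusted p = 0.00822), while neither of the alpha chains that bind them passed. Il4 did not pass when control replicate 2 was left out (adjusted p = 0.0561), and the other 3 held when any 1 library was left out. Il15 and Tslp were at 6.98 to 11.0 and 0.557 to 1.29 CPM and did not pass. Il5, Il9, Il2, Epo and Il21 were below the filter on low counts, at no more than 0.0595 CPM in any library, so the ligands of Il5ra, Il9r and Epor were at or near 0 in these libraries.

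Among the further chains, those of the TSLP receptor both rose. Il7r, which pairs with the common gamma chain for IL-7 and with the chain encoded by Crlf2 for TSLP, was at 26.2, 18.2 and 21.7 CPM in the control pools and 48.8, 58.1 and 55.5 after stress (1.30 ± 0.13, adjusted p = 0.00196, edgeR), and this call held when any 1 library was left out. Crlf2 was at 6.46, 8.93 and 10.6 CPM and at 14.3, 22.0 and 17.6 (1.06 ± 0.20, adjusted p = 0.0207), a call lost on leaving out control replicate 2 (adjusted p = 0.0925) or stress replicate 2 (0.0757). Both genes had no overlap between groups. Il2ra, the IL-2 receptor alpha chain, was called lower, from 26.0, 6.97 and 0.828 CPM in control replicates 1, 2 and 3 to 0.139, 0.241 and 0.270. The call of Il2ra was lost on leaving out control replicate 2 (adjusted p = 0.0925) or either of stress replicates 1 and 2 (0.101 and 0.129), and with limma-voom. The lymphocyte genes Cd3g, at 7.54, 2.47 and 1.44 CPM, and Trdc, at 2.27, 0.578 and 0.264, followed the same order over the controls, and were at 1.02 to 1.29 and 0.0595 to 0.260 in the stress pools. Their part in the value of Il2ra was not tested. Il21r (19.0 to 38.8 CPM) and Il15ra (2.93 to 4.05 CPM) did not pass.

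None of the 6 kinases or 5 STATs passed in the main edgeR fit or in limma-voom. In the main fit 1 of each list had an unadjusted p under 0.05, as had 24.8% of all genes tested. DESeq2 called 1 of each (11.9% of all genes tested), and without stress replicate 3 edgeR called 1 STAT (15.4%). The median log2 fold change was 0.015 for the kinases and -0.010 for the STATs. Jak1 was at 259, 249 and 257 CPM in the control pools and 244, 264 and 267 after stress, and Jak2, the kinase bound by the beta chains and by Epor, at 266, 216 and 226 and at 237, 353 and 334 (0.38 ± 0.14, adjusted p = 0.143, edgeR). Jak2 was high in stress replicates 2 and 3 only. It passed as higher without stress replicate 1 (0.53, adjusted p = 0.0418, edgeR) and without a filter on low counts (0.37, adjusted p = 0.0241). Stat6, which acts downstream of IL-4, was at 189, 185 and 193 CPM and at 192, 180 and 192, and Stat3 at 152 to 154 and 136 to 167. Of 8 adaptors and phosphatases the scaffold gene Gab2 rose, from 146, 101 and 128 CPM to 199, 208 and 187 (0.66 ± 0.12, adjusted p = 0.0187, edgeR), and did not pass when control replicate 3 (adjusted p = 0.0599) or either of stress replicates 1 and 2 (0.0580 and 0.0757) was left out. Inpp5d, the lipid phosphatase SHIP1, was at 626 to 730 CPM in the control pools and 778 to 902 after stress and did not pass (adjusted p = 0.0747), nor did the adaptor gene Grb2 (255 to 288 CPM over all libraries).

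Of 6 feedback inhibitors, several of which STAT5 is known to induce, 3 rose and none fell, where 4.34% of all genes tested rose and 1.85% fell. Cish was at 96.9, 91.3 and 92.5 CPM in the control pools and 125, 126 and 122 in the stress pools (0.41 ± 0.051, adjusted p = 0.00632, edgeR), and this call held when any 1 library was left out. Socs2 was at 153, 129 and 155 CPM and at 199, 238 and 198 (0.54 ± 0.096, adjusted p = 0.0189), and did not pass when control replicate 2 (adjusted p = 0.0715) or stress replicate 2 (0.0642) was left out. Socs1, at 1.00 to 1.12 and 1.60 to 2.13 CPM, passed narrowly (adjusted p = 0.0496) and did not pass without any 1 library other than stress replicate 3 (0.0865 to 0.171). Socs3 was at 62.4, 65.2 and 69.3 CPM and at 72.3, 87.6 and 94.7 and did not pass (adjusted p = 0.0539), and Socs7 was at 35.4 to 41.0 CPM over all libraries. Of 11 measured STAT5 and STAT6 target genes 3 rose and none fell, with a list median of 0.10. Bcl6, with a value below 0, missed narrowly (-0.41 ± 0.10, adjusted p = 0.0502, edgeR), as did Osm above 0 (0.46 ± 0.12, adjusted p = 0.0521). Without stress replicate 3 Bcl6 passed as lower (adjusted p = 0.00314) and Osm as higher (0.00294). Ccnd2, cyclin D2, was at 232, 191 and 210 CPM and at 382, 411 and 355 (0.86 ± 0.087, adjusted p = 0.00218), which held when any 1 library was left out. Gfi1, a transcriptional repressor, rose by 0.53 ± 0.10 (adjusted p = 0.0240) and Bcl2l1, which encodes BCL-XL, by 0.39 ± 0.095 (adjusted p = 0.0496). Gfi1 passed only without control replicate 1 or stress replicate 3 (0.0722 to 0.116 in the other 4 fits), and Bcl2l1 only without stress replicate 3 (0.0625 to 0.185 in the other 5). Mcl1, a survival gene, and the kinase gene Pim1 did not pass, at 691 to 957 and 596 to 719 CPM over all libraries.

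**Figure D5:**
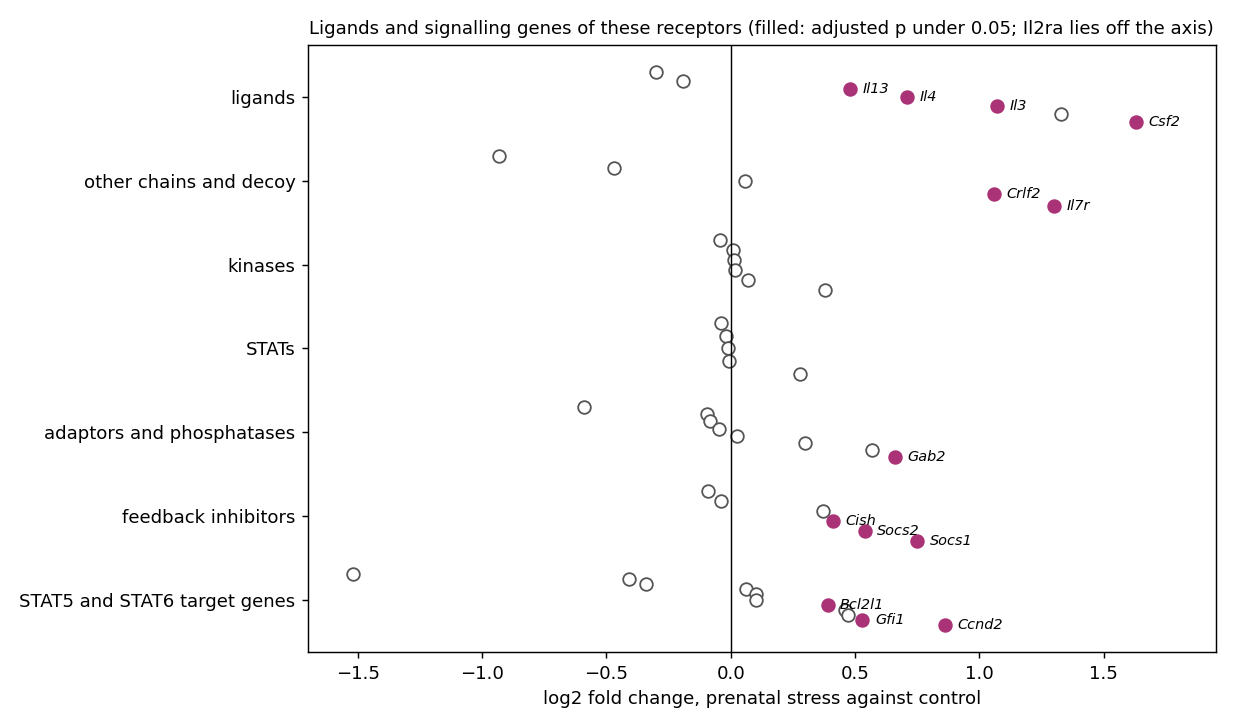
Log2 fold change (x axis) of the 48 tested pathway genes other than Il2ra, by list (y axis); filled points passed an adjusted p of 0.05 and are named. Filled points lie to the right of 0 among the ligands, further chains, adaptors, feedback inhibitors and target genes, and none is filled among the kinases and STATs.

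Genes were also ranked by how closely their profile over the 6 libraries, as log2 CPM centred on the gene's mean, followed that of each called member. Of 9709 genes compared, the closest to Csf2rb was Esyt2 (root mean square difference 0.031 on the log2 scale), followed by Ext1, Fndc8, Capg and Med7. The closest to Csf2rb2 were Ptgs2 (0.046), Rab4a, Ero1a, Egr1 and Ipmk. For Il3ra they were H2-T23 (0.057), Nfkbil1, Mocos, Bbln and Hspa1b, and for Il2rg B3galt5 (0.032), Klhl2, Sdhaf1, Cfap20dc and Svbp. No gene stood in more than 1 of these lists. With 6 libraries many genes share such a profile, and the ranking is a description.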

How the data were processed

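The authors deposited raw counts of reads per gene symbol, 1 table per library, not normalized. The submitters' processing notes name the tools FastQC, STAR 2.4 and HTSeq 0.9.1 and the builds GRCm39 and mm10. Not given in the sources used here are the strand setting, the annotation and the step each tool served. The 5 closing rows that name no gene held 18.6% to 20.3% of all reads tallied and were left out. From the counts, 16716 genes passed filterByExpr (edgeR; minimum count 10). They were scaled with TMM factors and tested for prenatal stress against control with edgeR 4.0.16 (R 4.3.3; glmQLFit, glmQLFTest, no covariate) and p-values were adjusted by Benjamini-Hochberg with a threshold of 0.05; biological variation between pools, as edgeR's common coefficient, was 10.4%. Approximate 95% intervals came from the same fit. For ratios of counts, two-sided exact permutation tests were used. The alternatives were other scalings, filters and tools (DESeq2 1.42.0, limma-voom 3.58.1), the replicate number as a block, a macrophage covariate (mean log2 CPM of 16 markers), stress replicate 3 alone, and fits without each library.

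The members, gene lists and alternatives were chosen with earlier results of these data known. The genes named are all members, the called genes and the 2 most expressed others of each pathway list, the leading 3 and the called genes of each marker list, and the 5 closest in profile to each called member, protein coding and with a mean of at least 5 CPM; not every one is described. Ncr1, Cd3g, Trdc, Fcgr1, Adgre1, Hba-a1, Il2, Il5, Il9, Epo, Il21, Bcl6 and Osm were named outside that rule, after their values were seen. Gm20489 was also outside it, named for its overlap with Il2rg. GENCODE M21 gave lengths and shared sequence (50664 gene rows matched by symbol, 90.8%). The test was tried on counts simulated for this comparison from 16445 genes, with 50 altered by each of 4 folds. Of the 1.25-fold changes 16.0% were recovered, of the 1.5-fold 56.0%, of the 2-fold 66.0% and of the 4-fold 92.0%, with 11 of 126 calls false; with no change simulated 1 call was made. No 2 libraries held identical counts.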

Additional observations from a re-analysis of the deposited data

How the results depend on the processing

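With 3 pools a group, 16.0% of genes simulated at a 1.25-fold change and 56.0% at 1.5-fold were called. The altered genes were of all levels, and 126 calls were made in all, against 1035 in the data. These shares are therefore not rates for the members. A member that did not pass may still differ.

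Of all genes 1035 were called, against 2085 with library totals only, 1933 with no filter on low counts, 1989 with DESeq2, 622 with the replicate block, 584 with the macrophage covariate and 171 with stress replicate 3 alone; without 1 library the count was 196 to 2647. Library totals made 26.5% of the calls higher, against 70.0% with TMM factors. Of the members 4 were called, 1 to 6 without 1 library and 0 with stress replicate 3 alone. Of the 57 pathway genes 14 were called, 22 with no filter or with DESeq2, 6 with stress replicate 3 alone, and 7 to 22 without 1 library. The summed beta chains, at 0.51, did not pass with the replicate block (0.51, adjusted p = 0.0569), the macrophage covariate (0.43), stress replicate 3 alone (0.47) or 3 of the 6 fits without 1 library (0.41 to 0.59 over all 6). No called member changed sign under any alternative run. Deviations of same-numbered libraries of the 2 groups had correlations of 0.0954, -0.0188 and 0.0684, and the other pairs ran from -0.209 to 0.136. With so few libraries this cannot show whether a shared number marks a shared day or batch, and the sample titles do not say. With the replicate block Csf2rb was not called (adjusted p = 0.0775, edgeR) and the other 3 called members were. By the longest transcript, control levels were 456 RPKM for Csf2rb, 67.3 for Il4ra, 40.9 for Il2rg, 15.0 for Il3ra, 16.9 for Csf2ra, 5.11 for Epor and 0.855 for Il9r.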
